A study of Mus musculus with 6 samples.

Results

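The glucocorticoid receptor, the enzyme that makes its ligand inside cells and 8 genes that the receptor is known to switch on were followed in fetal mouse lung with and without the histone methyltransferase MLL3. The 10 genes were chosen by name: Nr3c1 (the receptor), Hsd11b1 (the enzyme), the induced genes Zbtb16, Fkbp5, Tsc22d3, Per1, Klf9 and Errfi1, and the metallothionein genes Mt1 and Mt2. They are 10 of 55421 genes in the count table, each matched by symbol and gene identifier, and all 10 passed the filter on low counts that left 19042 genes for testing. RNA came from lung lobes of E18.5 mouse embryos, dissected without filling the lung with air. Wild-type samples (n = 3) were compared with Mll3FDC/FDC samples (n = 3), homozygous for an allele that the labels call Mll3 KO; MLL3 is encoded by Kmt2c. The labels name no Cre driver, no treatment and no second allele. They state neither what the allele removes, nor litter, nor hour of collection.

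Glucocorticoids are steroid hormones of the adrenal cortex, and their rise late in gestation prepares the lung for breathing air. The hormone binds its receptor in the cytoplasm, where chaperones hold it ready; the complex enters the nucleus and binds DNA at short palindromic elements. The enzyme encoded by Hsd11b1 regenerates active hormone from its inert form, so tissue response depends on it as well as on the blood level. Fkbp5, Tsc22d3, Per1, Klf9, Zbtb16 and Errfi1 are widely used as read-outs of receptor activity, although each also answers to other signals. MLL3 is an enhancer-associated methyltransferase of histone H3 lysine 4, and mice without it are known to die around birth.

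The libraries held 20158689 to 23305306 reads, and each of the 10 genes had between 164 reads (Mt2, knockout 1) and 7910 reads (Nr3c1, wild type 2) per library. Kmt2c itself had 3588, 4104 and 3453 reads in wild type and 3416, 3504 and 3399 in the knockouts, so whole-gene counts do not check the genotype. Knockout 3 was the library with Xist reads (59951 against 6 to 27 elsewhere) and 4 Y-linked reads, which touches the X-linked Tsc22d3 below. Libraries of 1 genotype differed by more than sampling noise (chi-square over degrees of freedom 9.39 to 23.35). Whether the samples are separate animals or litters is not stated, and the tests therefore speak only of the scatter among these 6 libraries. Alveolar type 1 markers were lower in the knockouts for 8 of 8 genes tested, 3 of which fell, with a summed level of 4931 to 5369 CPM (a gene's reads over the library total in megareads, after TMM scaling) in wild type and 3430 to 4040 CPM in knockouts. The 3 are calls of edgeR, while DESeq2 called 8 of these markers lower and limma voom 1. Alveolar type 2 markers summed to 18926 to 21633 and 18768 to 23302 CPM, and alveolar fibroblast markers to 6256 to 6915 and 5265 to 6369 CPM. The fibroblast sum is mostly Macf1 (means of 3681.5 CPM in wild type and 3220.6 CPM in knockouts). The type 2 sum is mostly Sftpc (12347 and 12163 CPM). Napsa and Etv5 were higher and Lyz2 lower in every knockout than in every wild type, without passing in edgeR. DESeq2 called Napsa and Etv5 higher and Lyz2 lower, and limma voom called 0 of the type 2 markers. Napsa and Etv5 also passed in edgeR with a term for title prefix, given below. Macrophage markers summed to 183 to 196 CPM in wild type and 160 to 175 CPM in knockouts, without overlap, 7 of 8 being lower in point estimate. Endothelial markers summed to 2114 to 2524 and 2022 to 2132 CPM, 6 of 8 being lower. None of these last 2 lists was called in edgeR (3 each at an unadjusted p under 0.05), and DESeq2 called Fcgr1 and Cldn5 lower. The part of these markers in the values of the 10 genes was not tested. In whole lung, fewer cells of a type and less RNA per cell cannot be told apart.

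One of the 10 genes changed. Zbtb16 fell in knockout lungs, and the other 9 did not pass the test (edgeR's quasi-likelihood test, adjusted p under 0.05 by Benjamini-Hochberg over all 19042 genes). Over all tested genes 0.305% were called lower and 0.063% higher. Of the 10, 9 were lower in point estimate, against 47.4% of all tested genes, a share that also stands beside the direction counts of the other lists. The median log2 fold change of the 10 was −0.16 against 0.01 over all tested genes. For 5 of the 10 (Zbtb16, Klf9, Tsc22d3, Hsd11b1 and Errfi1) every knockout was below every wild type, a pattern seen in 8.45% of tested genes in that direction, and none showed the reverse, seen in 8.6%. The same 5 had an unadjusted p under 0.05, against 6.02% of tested genes that were lower at that level. Those calls and gaps were counted with the 3 wild types against the 3 knockouts, and the share of all genes called lower changed with the setting: 1.55% in DESeq2, 0.042% in limma voom, 0.982% with no filter on low counts and 2.54% with a term for the number that opens each sample title (1 prefix on wild types 1 and 2 and knockout 1, another on wild type 3 and knockouts 2 and 3). The 10 genes gave 4, 0, 4 and 3 calls in these, all lower. With 1 library left out, edgeR called lower 0.0154% (without wild type 1), 0% (without wild type 2 or 3), 0.184% (without knockout 1), 0.0361% (without knockout 2) and 0.122% (without knockout 3).

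**Figure D1:**
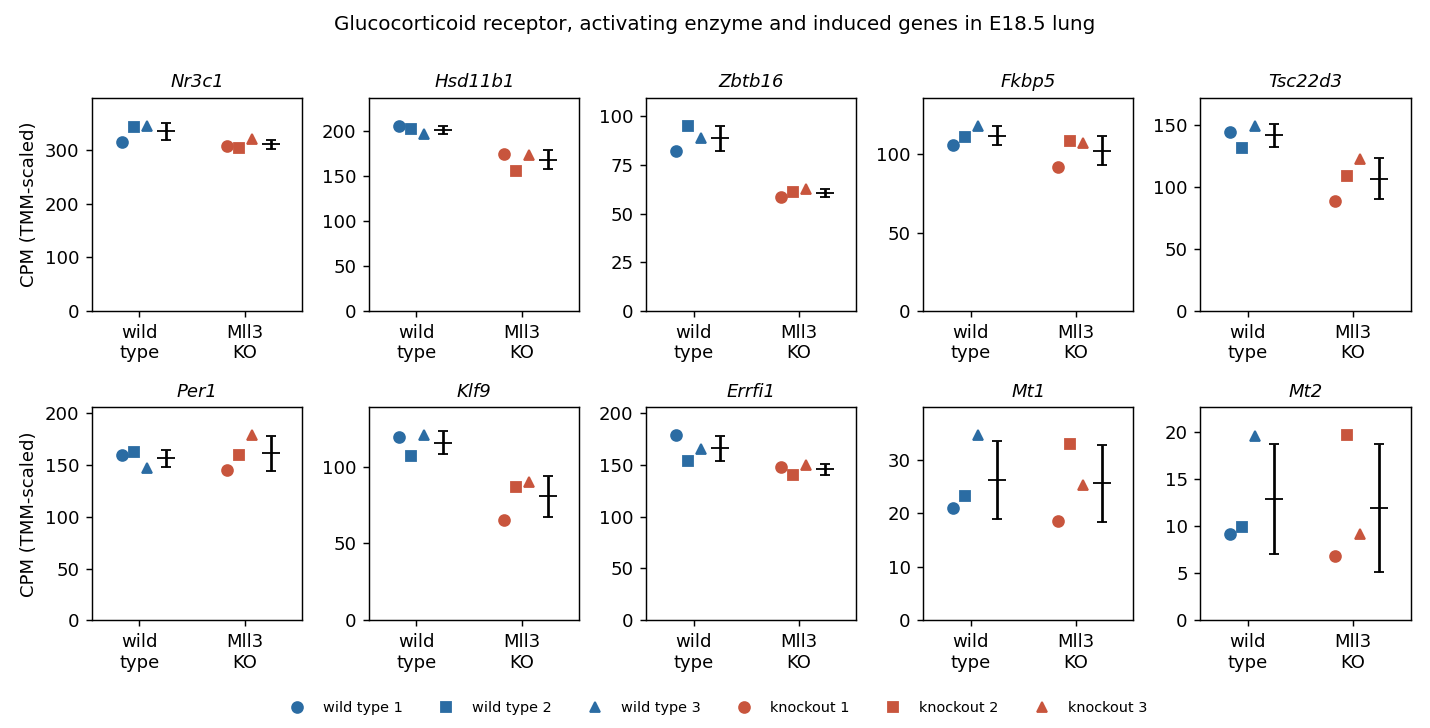
Level of each of the 10 genes in each library, in CPM after TMM scaling on a linear axis that starts at 0. Symbols are single libraries, and the black bar with caps is the mean ± SD (n = 3 per genotype). Wild type and knockout do not overlap for Hsd11b1, Zbtb16, Tsc22d3, Klf9 and Errfi1.

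The receptor gene was expressed at a high and steady level. Nr3c1 (mm10 chromosome 18, 39410545 to 39519421, minus strand) stood at 317, 345 and 346 CPM in the 3 wild-type lungs and at 309, 304 and 320.45 CPM in the knockouts. Knockout 3 lay above wild type 1, so the groups overlapped. The log2 fold change was −0.11 ± 0.07 (SE), with a 95% interval from −0.26 to 0.04 (edgeR adjusted p = 0.62). On the linear scale the interval spans 0.834 to 1.03 of the wild-type level.

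Hsd11b1, which encodes 11-beta-hydroxysteroid dehydrogenase type 1 (mm10 chromosome 1, 193221634 to 193264075, minus strand), was at 206, 202 and 197 CPM in wild type and at 175, 156 and 174 CPM in knockout lungs. The wild-type libraries lay close together and all knockouts were below them, with knockout 2 the lowest. The knockout level was 0.834 of wild type (log2 fold change −0.26 ± 0.07, SE; edgeR adjusted p = 0.16; 1.7% of tested genes had a smaller p). DESeq2, which called 1.55% of all tested genes lower, put its adjusted p at 0.037. Leaving out a library moved the log2 fold change between −0.29 and −0.21 and the edgeR adjusted p between 0.14 and 0.54.

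Zbtb16 encodes PLZF, a zinc finger repressor that steroid induces strongly in many mesenchymal cells. The gene lies on mm10 chromosome 9 (48654297 to 48836222, minus strand). Wild-type lungs had 82.2, 94.97 and 88.8 CPM and knockout lungs 58.5, 61.0 and 62.6 CPM. The knockouts lay close together, and the highest of them was well below the lowest wild type. Zbtb16 fell by 31.5% (88.7 ± 6.37 to 60.7 ± 2.06 CPM, SD, n = 3 each; log2 fold change −0.55 ± 0.07, SE; edgeR adjusted p = 0.021). Only 0.07% of tested genes had a smaller p. Within the 2 title prefixes, whose meaning is not stated, the difference was −0.59 (wild types 1 and 2 against knockout 1) and −0.52 (wild type 3 against knockouts 2 and 3). DESeq2 gave an adjusted p of 8.21e-07.

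The call on Zbtb16 was lost under several alternatives while its size moved little. Limma voom gave an adjusted p of 0.051, as did edgeR without wild type 1 (0.051). Values were 0.10 without wild type 2, 0.097 without wild type 3, 0.085 without knockout 2 and 0.059 without knockout 3, and 0.040 without knockout 1. Over all 18 alternatives the log2 fold change stayed between −0.60 and −0.50. Zbtb16 also marks innate-like lymphocytes. Of 10 lymphocyte markers 2 had enough reads to be tested. Among the others Cd3e and Klrb1c had 0 to 3 and 1 to 5 reads per library, and Il7r and Il2rb had 3 to 17 and 5 to 14. The 2 tested, Rora and Gata3, summed to 29.6 to 37.2 CPM in wild type and 21.9 to 34.7 CPM in knockouts. That sum is mostly Rora (means of 30.9 and 27.9 CPM), with Gata3 at 1.49 and 2.04 CPM. Rora was lower (−0.15) and Gata3 higher (0.44) in log2 fold change, neither past the test (edgeR adjusted p = 0.81 and 0.71). The part of lymphocytes in the fall of Zbtb16 was not tested. Smooth muscle and myofibroblast markers summed to 368 to 937 CPM in wild type and 319 to 463 CPM in knockouts, 7 of 8 being lower and none past the test (edgeR; no unadjusted p under 0.05, and 0 calls in DESeq2). Their sum was highest in wild type 1, as were Acta2, Myh11, Tagln, Des, Actg2 and Cnn1, whereas Myocd and Lgr6 were lowest of the wild types there. Fibroblast markers, given above, were 8 of 10 lower in point estimate with none past the test (edgeR; 1 unadjusted p under 0.05, and 0 calls in DESeq2), and the part of either list in the fall of Zbtb16 was not tested.

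Klf9, a Krüppel-like factor of the immediate steroid response, had a difference close in size to that of Zbtb16 but a wider spread. It was at 119, 107 and 120.47 CPM in wild type and at 65.2, 86.6 and 89.9 CPM in knockouts (mm10 chromosome 19, 23141226 to 23168134, plus strand). Knockout 1 stood apart at the bottom, and the other 2 knockouts lay close together, still below every wild type. The level in knockouts was 0.697 of wild type (log2 fold change −0.52 ± 0.12, SE; 95% interval −0.79 to −0.25; edgeR adjusted p = 0.14). It passed in DESeq2 (adjusted p = 0.0016) and in edgeR with the title prefix as a term (0.0077), a model in which 2.54% of all tested genes were called lower. Without knockout 1 the log2 fold change was −0.39 (edgeR adjusted p = 0.070). Within the prefixes it was −0.79 and −0.45.

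Tsc22d3 encodes GILZ, a leucine zipper protein through which steroid dampens inflammation. Its values were 144, 131 and 149 CPM in wild type and 89.0, 109 and 122 CPM in knockouts (mm10 chromosome X, 140539528 to 140600659, minus strand). As for Klf9, knockout 1 was the lowest library. Knockout 3, the library with Xist reads, was the highest of the knockouts. The log2 fold change was −0.41 ± 0.11 (SE; 95% interval −0.66 to −0.16; edgeR adjusted p = 0.21), with 0.023 in DESeq2 and 0.012 with the title prefix as a term. Without knockout 3 it was −0.52 (edgeR adjusted p = 0.10) and without knockout 1 it was −0.29 (0.19). The ratio of Klf9 to Tsc22d3 CPM, chosen after the values were seen, stayed between 0.806 and 0.827 in wild type and between 0.733 and 0.793 in knockouts, while Klf9 itself spread 1.38-fold among the knockouts. This ratio restates CPM values given above and was not compared with other gene pairs.

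Errfi1, an inhibitor of EGF receptor signalling, was at 179, 154 and 165 CPM in wild type and at 148, 140 and 149.8 CPM in knockouts (mm10 chromosome 4, 150853919 to 150868892, plus strand). The groups did not overlap, with wild type 2 and knockout 3 the nearest to each other. Its log2 fold change was −0.19 ± 0.07 (SE; edgeR adjusted p = 0.36), and no alternative brought it past the threshold.

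Fkbp5 and Per1, the induced genes whose groups overlapped, did not pass the test. Fkbp5 encodes a co-chaperone that lowers the receptor's affinity for hormone. Its levels were 106, 111 and 118 CPM in wild type and 92.0, 108 and 107 CPM in knockouts (mm10 chromosome 17, 28399094 to 28517527, minus strand). Knockouts 2 and 3 lay inside the wild-type range. The log2 fold change was −0.13 ± 0.08 (SE; 95% interval −0.30 to 0.04; edgeR adjusted p = 0.60), and −0.06 without knockout 1. Per1, a clock repressor that steroid induces directly, was at 160.2, 163 and 147 CPM in wild type and at 145, 159.7 and 179 CPM in knockouts (mm10 chromosome 11, 69095217 to 69109960, plus strand). The knockouts held both the lowest and the highest library. Its log2 fold change was 0.04 ± 0.08 (SE; 95% interval −0.14 to 0.22; edgeR adjusted p = 0.91), and its sign differed between the prefixes (−0.15 and 0.20). The Klf9 to Per1 ratio of CPM, chosen after the values were seen, was 0.656 to 0.817 in wild type and 0.449 to 0.542 in knockouts. That gap restates the CPM of the 2 genes and is no separate result. The share of gene pairs with such a gap was not computed.

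**Figure D2:**
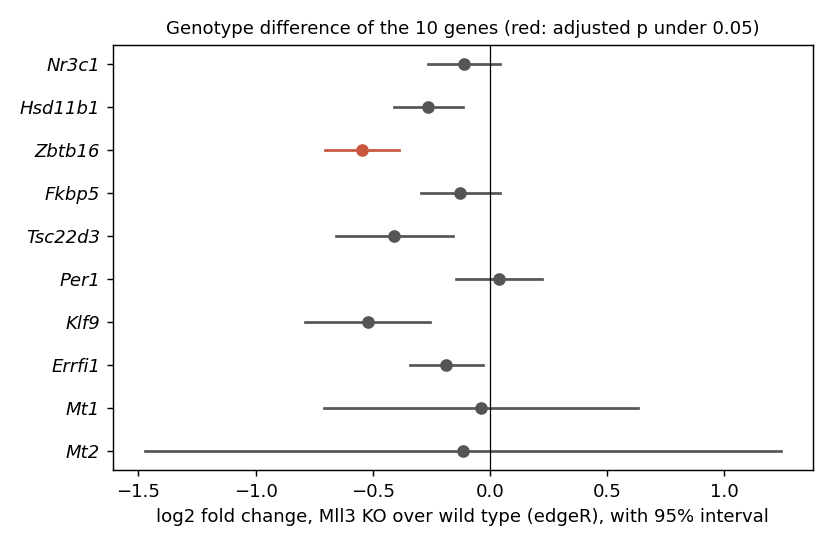
Log2 fold change of each gene, knockout over wild type, from edgeR (points) with its 95% interval (lines); red marks an adjusted p under 0.05. Zbtb16 at −0.55 is the 1 gene in red; the intervals of Klf9, Tsc22d3, Hsd11b1 and Errfi1 also lie below 0, and those of Mt1 and Mt2 are the widest.

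The metallothionein genes varied more among libraries of 1 genotype than between the genotype means. Mt1 and Mt2 encode small cysteine-rich proteins that bind zinc and copper, are induced by metals as well as by steroid, and lie next to each other on chromosome 8 (mm10, Mt2 at 94172664 to 94173568 and Mt1 at 94179082 to 94180327, both plus strand). Mt1 was at 21.0, 23.1 and 34.6 CPM in wild type and at 18.54, 33.0 and 25.2 CPM in knockouts. Mt2 was at 9.12, 9.93 and 19.6 CPM in wild type and at 6.86, 19.7 and 9.19 CPM in knockouts. Wild type 3 and knockout 2 were the 2 highest libraries for both genes, and knockout 1 was the lowest. Mt2 thus spread 2.14-fold among wild types and 2.87-fold among knockouts.

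Their log2 fold changes were −0.04 ± 0.27 (SE, Mt1; edgeR adjusted p = 0.98) and −0.12 ± 0.53 (SE, Mt2; edgeR adjusted p = 0.97). Within the title prefixes both genes were lower in knockouts, at −0.25 and −0.26 (Mt1) and −0.47 and −0.54 (Mt2). With the title prefix as a term they were at −0.25 and −0.46 and did not pass (edgeR adjusted p = 0.28 and 0.57). The 95% interval of Mt2 ran from 0.36 to 2.36 times the wild-type level. Liver markers were measured beside them, because fetal liver is rich in metallothionein. The liver markers (7 of 10 tested, 7 of 7 higher in knockouts in point estimate, 0 called in edgeR or DESeq2 and 1 with an unadjusted p under 0.05) summed to 11.1, 14.5 and 18.2 CPM in wild type and to 9.5, 81.1 and 29.8 CPM in knockouts, with albumin (Alb) at 41.1 CPM in knockout 2 and 3.85 to 15.9 CPM in the other 5. Their part in the metallothionein values was not tested.

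Promoter windows were read from RefSeq (build GRCm38.p6, the assembly of mm10) for 8 of the 10 genes, as 12 windows of 250 bases before an annotated start. Zbtb16 and Nr3c1 had no window in the reference used and were not searched. Each was searched on both strands for a glucocorticoid receptor element (GNACANNNTGTNC), an E-box (CACGTG), a cAMP element (TGACGTCA), a TATA box (TATAAA) and a metal element (TGCACNC or TGCGCNC); no match overlapped another in the member windows. The receptor element was found in the Mt1 window alone, 94 to 82 bases before the start, and in 0.39% of 32851 such windows over all genes. The E-box was found in 1 Per1 window, 166 to 161 bases before the start, and in the Fkbp5 window, against 6.02% of all windows, and the cAMP element in 1 Errfi1 window, against 1.55%. The metal element occurred 3 times in the Mt2 window and once each in those of Mt1 and Hsd11b1 and the other Per1 window, against 21.41% of all windows with at least 1 and 1.26% with 3 or more; the TATA box was in 1 Errfi1 window, against 12.37%. The Klf9 window and the 3 Tsc22d3 windows held no match. Windows of 3 genes are printed 5′ to 3′ to set the pair of clock-linked genes with unlike values, Klf9 and Per1, beside the 1 window with a receptor element; capitals mark the E-box in Per1 and the receptor element in Mt1.
Klf9, chr19:23140976-23141225, plus strand: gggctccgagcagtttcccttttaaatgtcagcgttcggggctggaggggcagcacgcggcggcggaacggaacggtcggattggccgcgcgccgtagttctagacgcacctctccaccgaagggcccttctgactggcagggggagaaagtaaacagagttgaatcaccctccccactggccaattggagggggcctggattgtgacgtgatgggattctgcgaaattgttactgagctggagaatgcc
Per1, chr11:69098699-69098948, plus strand: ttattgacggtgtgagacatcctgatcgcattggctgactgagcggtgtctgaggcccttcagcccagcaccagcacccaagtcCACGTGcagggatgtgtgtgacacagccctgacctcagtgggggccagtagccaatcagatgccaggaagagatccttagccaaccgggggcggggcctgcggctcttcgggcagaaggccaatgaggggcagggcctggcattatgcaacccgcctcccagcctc
Mt1, chr8:94178839-94179088, plus strand: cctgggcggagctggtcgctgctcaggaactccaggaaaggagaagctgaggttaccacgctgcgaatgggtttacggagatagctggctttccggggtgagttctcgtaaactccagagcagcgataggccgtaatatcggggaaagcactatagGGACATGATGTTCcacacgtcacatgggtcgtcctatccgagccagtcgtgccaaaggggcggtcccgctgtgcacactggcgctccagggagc
A match is a description of these letters and not a bound site. Distant enhancers, bases after each annotated start and starts outside the RefSeq table were not searched. Which start is used in lung was not tested, for the metallothionein genes as for the others.

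By library, the lowest values lay mostly in 1 knockout. Knockout 1 was the lowest library for 7 of the 10 genes and for 5 of the 6 induced genes, and knockout 2 was the lowest for the other 3. Wild type 3 was the highest for 5 of the 10. No wild type was the lowest library for any of them. Knockout 1 also had the lowest summed level of alveolar type 1 markers (3430 CPM) and of alveolar fibroblast markers (5265 CPM) and the most reads in all (23305306). The fibroblast sum is mostly Macf1. Macf1, Limch1, Npnt, Fgf10 and Col13a1 of that list were lowest in knockout 1, while Wnt2 (89.0 CPM) and Meox2 (104.5 CPM) were highest there. Tcf21, Pdgfra and Plin2 were neither. The part of these sums and of the read total in the low values of knockout 1 was not tested.

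**Figure D3:**
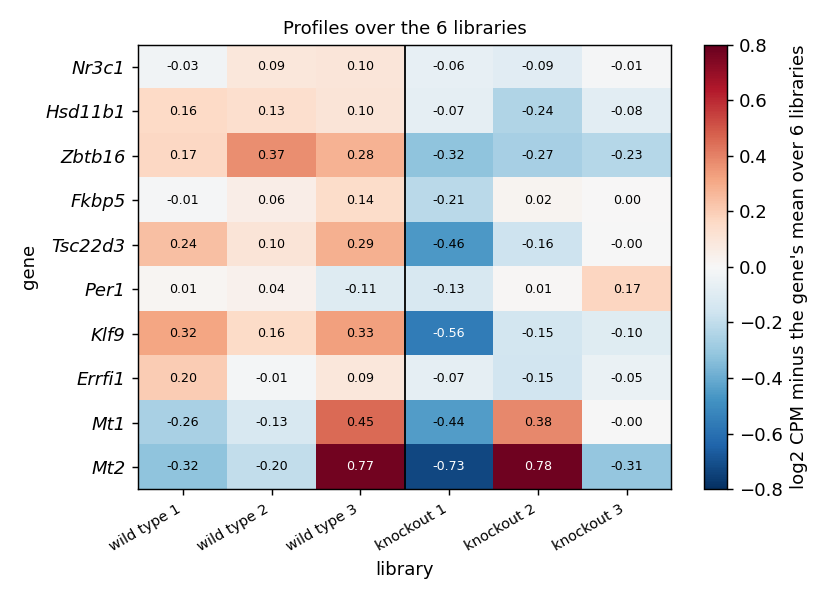
Log2 CPM of each gene minus its own mean over the 6 libraries (colour and number), wild types left of the line and knockouts right. Klf9 (−0.56) and Tsc22d3 (−0.46) are lowest in knockout 1, Zbtb16 is even among the knockouts (−0.32 to −0.23), and Mt1 and Mt2 are high in wild type 3 and knockout 2 together.

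Levels were compared between genes per length, as CPM per kilobase of the annotated gene length (RPKM), in wild type. That length pools all annotated exons and can exceed the transcript. For Mt1 it is 1246 bases, the whole span from 94179082 to 94180327. The order of genes therefore depends on the annotation. Hsd11b1 led at 47.5 ± 1.03 RPKM (SD, n = 3), followed by Errfi1 at 46.3 ± 3.45 and Nr3c1 at 43.7 ± 2.15, and neighbours among these 3 overlapped. Tsc22d3 (32.6 ± 2.16), Per1 (27.8 ± 1.47) and Klf9 (24.0 ± 1.57) each lay below the gene before it without overlap. Mt2 (21.9 ± 9.88), Mt1 (21.1 ± 5.84) and Zbtb16 (16.8 ± 1.21) each overlapped the gene before, and Fkbp5 was the lowest at 11.8 ± 0.64 RPKM. Receptor and enzyme thus stood at the 94.2 and 94.8 percentile of tested genes per length. In knockouts Hsd11b1 (39.6 ± 2.48), Errfi1 (40.7 ± 1.46) and Nr3c1 (40.5 ± 1.10) came to nearly equal RPKM.

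The genes whose profile over the 6 libraries was nearest to that of each of 3 of them were sought among 16914 genes of at least 1 CPM, by the root mean square distance between centred log2 CPM. For Zbtb16 they were Slfn5 (distance 0.064; 121 CPM in wild type, 80.5 in knockouts; edgeR adjusted p = 0.021), Milr1 (0.067) and Tex15 (0.075). For Hsd11b1 they were Anxa5 (0.019), Icam2 (0.023) and Rhog (0.029), and for Nr3c1 Mrps17 (0.015), Selenot (0.020) and Ppp6c (0.023). The profiles share libraries and depth, and the distances are a description.

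The wider pathway was read from 8 lists with 127 genes, of which 112 were tested. One rose (Angptl4) and 0 fell in edgeR, and 3 higher and 13 lower ones had unadjusted p-values under 0.05. Of all 19042 tested genes, 896 were higher and 1147 lower at that level, which also stands beside the counts of single lists below. In DESeq2 there were 1 higher and 2 lower calls among the 112. The median log2 fold change of the 112 was −0.02, against 0.01 over all tested genes.

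Steroid supply in the lung showed no gene past the test among 7 tested (edgeR; no unadjusted p under 0.05, and 0 calls in DESeq2), with a median of −0.10. Hsd11b2, which inactivates the hormone, was barely expressed, with means of 1.05 ± 0.18 CPM (wild type) and 0.81 ± 0.29 CPM (knockouts; SD, n = 3), beside 202 ± 4.37 CPM of Hsd11b1 in wild type. H6pd, which supplies cofactor to the activating enzyme, was at 340.2 ± 1.39 and 318 ± 28.6 CPM (edgeR adjusted p = 0.71). Crh, the corticotropin-releasing hormone gene, was at 6.73, 10.5 and 7.01 CPM in wild type and at 32.4, 8.76 and 14.5 CPM in knockouts, highest in knockout 1 (edgeR adjusted p = 0.54). Srd5a1 (0.43) and Star (0.34) were higher in log2 fold change without passing (edgeR adjusted p = 0.50 and 0.62). The adrenal enzyme genes Cyp11b1 and Cyp21a1 had no read in any library.

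Receptor chaperones (14 tested) and coregulators (15 tested) had medians of −0.01 and 0.04, with none called in edgeR or DESeq2 and 2 and 0 at an unadjusted p under 0.05. Among chaperones the lowest p belonged to Hsp90aa1 (93.5 ± 9.10 and 79.3 ± 6.22 CPM, edgeR adjusted p = 0.34), Bag1 (log2 fold change −0.21), Ppid (0.14) and Ptges3 (−0.14). Hsp90aa1 passed with the title prefix as a term. Among the coregulators named here they were Ppargc1a (0.24), Nrip1 (0.15) and Med14 (0.11), and 13 of the 15 were higher in point estimate.

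Of 28 other induced genes tested, 1 rose, 0 fell and 27 did not pass, with a median log2 fold change of −0.02. Angptl4, a secreted inhibitor of lipoprotein lipase that fasting and hypoxia induce too, rose from 7.77, 7.28 and 9.83 CPM to 14.7, 19.4 and 15.4 CPM (log2 fold change 0.99 ± 0.15, SE; edgeR adjusted p = 0.037). Every knockout was above every wild type, the opposite direction to Zbtb16. The call was lost in limma voom and in edgeR without any 1 of the wild types or of knockouts 2 and 3. Anxa1, annexin A1, was at 249, 129 and 167 CPM in wild type and at 74.8, 90.5 and 91.3 CPM in knockouts (−1.09 ± 0.27, SE; edgeR adjusted p = 0.25), and passed in DESeq2. Glul (−0.21) and Cebpd (−0.21) did not pass. Dusp1 and Sgk1, both immediate targets of the receptor, had log2 fold changes of 0.00 and 0.00 (SE 0.08 and 0.13).

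The 14 lung epithelial genes that steroid raises had a median log2 fold change of −0.11, and none was called in edgeR (1 higher and 5 lower at an unadjusted p under 0.05). Scnn1g, a subunit of the sodium channel that clears lung liquid, was at 109.8, 91.2 and 106.5 CPM in wild type and at 57.3, 75.1 and 75.8 CPM in knockouts (−0.56 ± 0.12, SE; edgeR adjusted p = 0.11). It passed in DESeq2, and Scnn1b, Scnn1g and Sftpd passed in edgeR with the title prefix as a term. Scd1 (−0.68), Fasn (−0.31) and Lpcat1 (0.24), enzymes of lipid synthesis, did not pass. The part of the lower alveolar type 1 markers, given above, in these values was not tested.

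Of 7 tested genes that steroid lowers, none was called in edgeR or DESeq2 (1 at an unadjusted p under 0.05), with a median of −0.01. Icam1 (−0.17), Ccl2 (0.76), Mdk (0.48) and Vcan (0.45) had the lowest p. Mdk passed as higher in edgeR with the title prefix as a term. Mdk and Vcan were highest in knockout 1, at 67.1 and 251 CPM against 31.4 to 41.7 and 123 to 169 CPM in the other libraries. Icam1 (149.5 CPM), Ptgs2 (1.80 CPM) and Mmp9 (0.92 CPM) of the same list were lowest in that library, as were Klf9 and Tsc22d3. A link among these values was not tested.

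The clock genes beside Per1 and Klf9 did not pass the test. None of 15 was called in edgeR or DESeq2, 1 had an unadjusted p under 0.05, and the median was −0.08. Tef (−0.16), Cry1 (−0.14), Npas2 (−0.21) and Bhlhe41 (−0.52) had the lowest p, while Per2 (0.00 ± 0.08, SE) and Arntl (−0.06 ± 0.10, SE) were nearer 0. Of 12 tested genes of the metal and oxidant response, none was called in edgeR or DESeq2 (1 higher and 1 lower at an unadjusted p under 0.05), with a median of −0.001. Txnrd1, thioredoxin reductase, was at 81.9, 83.2 and 79.9 CPM in wild type and at 107, 98.7 and 92.8 CPM in knockouts (0.28 ± 0.07, SE; edgeR adjusted p = 0.13). It passed as higher in edgeR with no filter on low counts, and also with the prefix term. Cp (−0.21), Nqo1 (0.25) and Slc39a14 (0.19) did not pass, and the zinc exporter gene Slc30a1, a metal-induced partner of the metallothioneins, was at −0.12 ± 0.09 (SE).

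**Figure D4:**
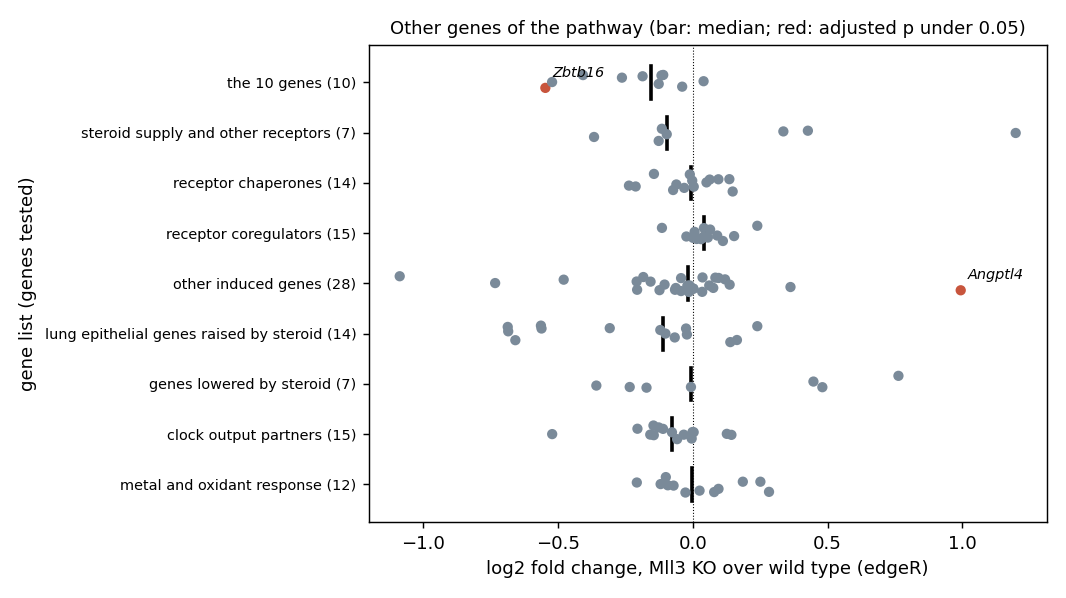
Log2 fold change, knockout over wild type, of every tested gene in each list (points; black bars are medians; red marks an adjusted p under 0.05 in edgeR; numbers in brackets are genes tested). Zbtb16 and Angptl4 are the 2 red points and lie on opposite sides of 0.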

How the data were processed

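Lung RNA of 6 samples at E18.5 was sequenced from strand-specific poly(A) libraries, per the labels' protocols. The deposited table of raw counts was made with featureCounts 1.6.3 (reverse-stranded, mapping quality of at least 1, Ensembl 98 on mm10) from GSNAP alignments, per the file headers and the submitters' processing notes. Reads of near-identical copies are mostly lost to that filter, which can lower the counts of gene families. Another deposited file gives normalized signal made by the authors: each count over a size factor of its library, rounded. Multiplied by that factor, 100% of its values came out whole within 0.1 read of the count table, and the test on these recovered reads called the same 12 genes higher and 58 lower.

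After 92 ERCC rows (1 read in all) were left out, filterByExpr kept 19042 of 34615 genes with a read. The test was edgeR 4.0.16 (R 4.3.3; TMM, robust quasi-likelihood, genotype only, Benjamini-Hochberg, threshold 0.05), tried on simulated counts first. SE is the absolute log2 fold change over the square root of F. Log2 CPM used a prior count of 2. Alternatives were DESeq2 1.42.0, limma 3.58.1 (voom, or trend on the normalized values), other scaling and filters, the title prefix as a term and each library left out. Members, lists and tests were chosen with earlier results of these data known. Named genes are the 10 members, list genes past the threshold or with the 4 lowest p, and the 3 nearest profiles of Nr3c1, Hsd11b1 and Zbtb16; other genes named were chosen after their values were seen, and 1 gene that the rule names is not reported here. Groups follow the genotype label; replicate numbers only name the samples.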

Additional observations from a re-analysis of the deposited data

How the results depend on the processing

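Of 180 values of the 10 genes under alternatives, 154 were unchanged, 8 became calls and 6 lost the call on Zbtb16. Unchanged means the same direction and side of the threshold. Within-prefix values carry no test, and for them it means within the replicate SD of the main value. The recovered reads, which gave the same values as the main fit, are counted as unchanged. Another 5 values, all within prefixes, moved by more than the replicate SD, and 7 reversed in sign with a library left out. One of the 5 that moved also changed sign, Per1 at −0.15 within the prefix of wild types 1 and 2 and knockout 1. The 7 reversals were of genes without a call: Per1 at −0.0086 without wild type 3 and −0.045 without knockout 3; Mt1 at 0.20 without wild type 3 and 0.14 without knockout 1; and Mt2 at 0.31, 0.16 and 0.03 without wild type 3, knockout 1 and knockout 3. With each library left out in turn, Per1 ran from −0.045 to 0.11, Mt1 from −0.26 to 0.20 and Mt2 from −0.68 to 0.31. The cause was not tested. Genes called higher and lower were 12 and 58 in edgeR, 62 and 295 in DESeq2, 0 and 8 in limma voom, 103 and 340 with no filter, 142 and 483 with a term for title prefix, and 3 higher (40 and 41 lower) by limma on the normalized values with pseudocounts of 1 and 0.5. Without 1 library they ran from 0 to 5 higher and 0 to 36 lower, 0 in all without wild type 2 or 3, where 1954 and 1629 genes had an unadjusted p under 0.05. Of the 10 genes, 1 was called lower in edgeR, 4 in DESeq2 and with no filter (Hsd11b1, Zbtb16, Tsc22d3 and Klf9), 3 with the prefix term, 0 in limma voom, and 0 to 1 without 1 library. Of the pathway genes, 1 was called higher and 0 lower in edgeR, 2 lower in DESeq2, 2 higher and 1 lower with no filter, 3 higher and 4 lower with the prefix term, 0 higher in limma voom, and 0 to 1 in each direction without 1 library (Scd1 lower without knockout 3). No paired analysis was possible by replicate number because these numbers only name the samples; the title prefix, which holds both genotypes at each of its 2 values, was fitted as a term and changed the calls as given above. Scaling by library size moved the median of all genes by 0.03 and no call on the 10 genes. With 3 libraries per genotype, Mt2 had the fewest reads of the 10 genes (164 to 416 per library) and the widest interval. Its CPM also spread 2.14-fold among wild types and 2.87-fold among knockouts, and the part of read number in the interval was not tested.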
